A study of Mus musculus with 7 samples.

Results

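Smooth muscle contractile and cytoskeletal genes were examined in the lungs of mice with a Gata5 deletion. The members are 37 named genes that encode the parts of the smooth muscle contractile apparatus, its regulators and its links to the cell membrane, and 36 of them had at least 1 probe set annotated to that gene alone, out of 18193 genes so named on the array. Rock2 had none and has no value here. For each gene the probe set brightest on average across the 7 arrays was used, and its other probe sets are given as a check. Of the 36 genes, 35 reached the level at which genes were tested, a mean log2 level of 5.47, and Myocd lay under it.

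Total RNA was from left lung at 8 weeks of age, of 3 mice labelled Gata5 KO (knockout) and 4 labelled wild type (WT), with 1 Affymetrix Mouse Genome 430 2.0 array per mouse. The labels name no treatment and call the mice of each group biological replicates. The sources used here do not give the strain, the form of the deleted allele, the cells in which it is deleted or whether the mice are littermates. GATA5 is a zinc-finger transcription factor, and the comparison asks which lung transcripts differ when its gene is deleted. Levels are on a log2 scale, so a difference of 1 is a doubling of signal, and changes are KO minus WT.

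In smooth muscle, myosin filaments pull on actin filaments, and contraction starts when myosin light chain kinase phosphorylates the regulatory light chain of myosin. Myosin phosphatase removes that phosphate and so ends contraction. In lung these genes are used by airway and vascular smooth muscle, by pericytes and by myofibroblasts, and several of them (Flna, Tln1, Vcl, Actn4, Rhoa) are used by most cells. Serum response factor (SRF) and its coactivator myocardin drive many of the contractile genes by binding CArG boxes in their promoters.

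The lung labels were borne out by the brightest epithelial markers: Scgb1a1 of club cells lay between 14.45 and 14.61 on the 7 arrays and Ager of alveolar type 1 cells between 14.06 and 14.18. Smooth muscle was present by its defining markers, with Acta2 between 12.43 and 12.87. The median log2 level of an array lay between 6.10 and 6.15, and the array replicate WT 4 stood apart in Xist, which is switched on in females, at 12.72 against 6.31 to 6.48 on the other arrays. Eif2s3y, a gene of the Y chromosome, was at 3.71 on WT 4 and between 9.30 and 9.68 on the other arrays. By these genes WT 4 was from a female and all other arrays from males, so sex was not balanced between the groups. The control probe sets at the ends of the beta-actin transcript differed between the groups: the excess of the 3′ set over the 5′ set was 4.96 ± 0.37 (SD, n = 3) in KO lungs and 4.10 ± 0.22 (SD, n = 4) in WT lungs, without overlap (exact two-sided permutation p = 0.0286, the smallest that 35 splits of the arrays can give). Gata5 itself, at the brighter of its probe sets, was at 4.95 ± 0.22 in KO and 5.54 ± 0.22 in WT (change -0.60, limma adjusted p = 0.0326 in a fit without the level filter). The part of the gene that was deleted is not given, so this probe set may lie outside it and check nothing.

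Of the 35 tested members, 9 fell in KO lungs, 1 rose and 25 did not pass (limma, adjusted p under 0.05 over all 13285 tested genes, of which 15.6% passed in either direction). The 9 that fell are 25.7% of the tested members, against 10.0% of all tested genes lower by the same rule and 12.0% of the 10115 tested genes within the members' range of levels. The 1 that rose is 2.86%, against 5.56% of all tested genes and 5.48% of those in the same range of levels. The members that fell were Csrp1, Myl9, Des, Tagln, Pdlim7, Flna, Cnn1, Smtn and Tln1, and the one that rose was Tpm2. The median change of the 35 was -0.15, against -0.003 for all tested genes and -0.04 for those in the same range of levels. After a further quantile normalization 7 members were lower and 2 higher, after median centring 10 and 1, and after cyclic loess 8 and 1. The difference between control probe sets along the beta-actin or Gapdh transcript was used as a covariate in 3 fits. In limma 0 members passed in any of them (5, 9 and 11 at unadjusted p under 0.05). Among the 5 mice of lowest mouse number in the labels, 0 members passed (13 at unadjusted p under 0.05). Over all 13285 tested genes 0, 0 and 5 passed in the 3 fits and 0 among the 5 mice. The lower members numbered 5 with the Xist level as a covariate and 5 without WT replicate 1 or WT replicate 4. The lower genes over the whole array fell as well, from 1331 to 634 with the Xist covariate. They numbered 695 without WT replicate 1 and 604 without WT replicate 4. Xist was high on WT replicate 4 alone, so that covariate mostly sets this array apart, much as leaving it out does. An effect of sex cannot be told from one of that mouse. In 14 members the highest of the 3 KO arrays was under the lowest of the 4 WT arrays, which was the case for 17.5% of all tested genes, and in 1 the groups were separated the other way, as for 12.1% of all tested genes. In whole lung, fewer cells that use a gene and less of its RNA per cell cannot be told apart, nor can the kind of cell.

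**Figure D1:**
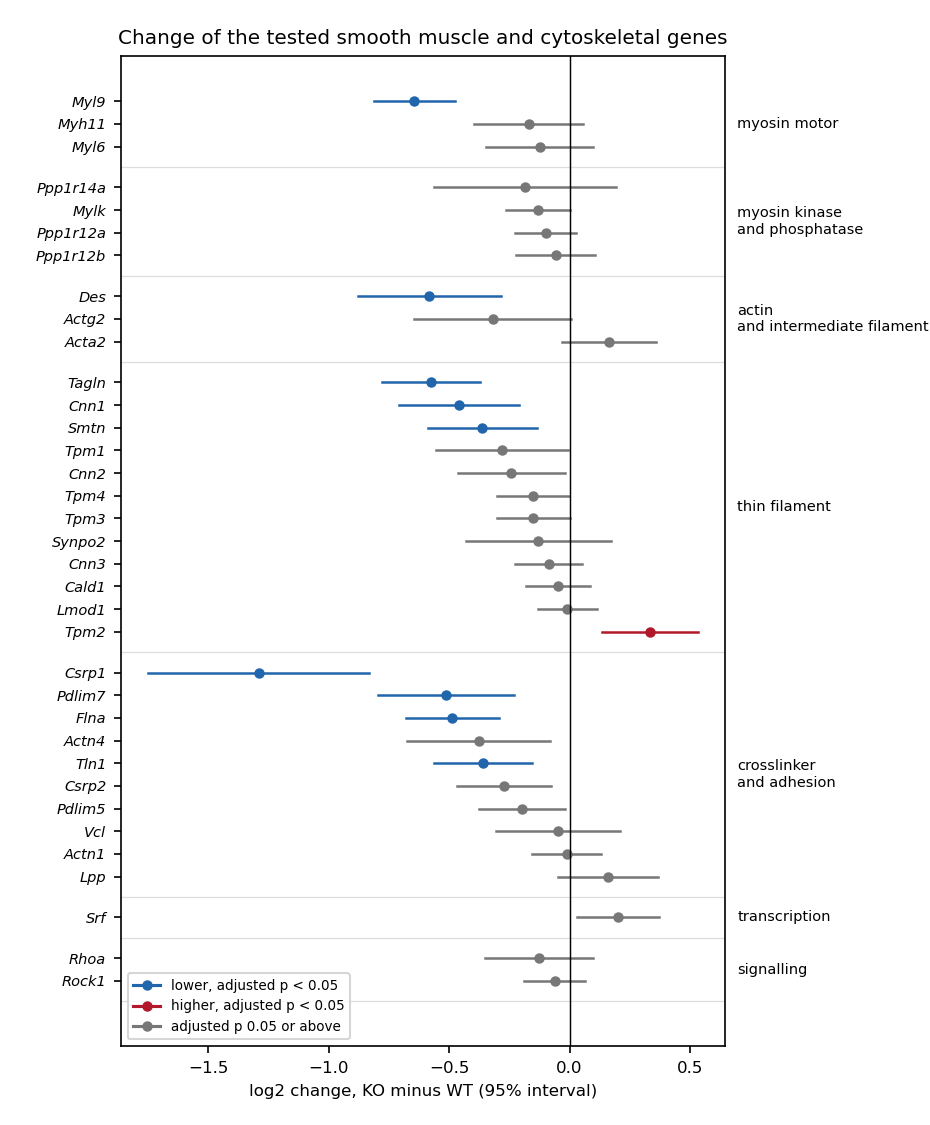
The log2 change (KO minus WT, horizontal axis) of each of the 35 tested members is drawn as a point with its 95% interval from limma, grouped by role. The 9 blue genes fell, Tpm2 in red rose, and the 25 grey genes did not pass; Csrp1 has the largest change at -1.29.

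Among the genes of the myosin motor, 1 of 3 fell. Myl9, the regulatory light chain that is phosphorylated to start contraction, stood at 7.83, 8.06 and 7.93 on the KO arrays and at 8.50, 8.59, 8.58 and 8.67 on the WT arrays. Every KO mouse lay below every WT mouse by a gap wider than the spread within either group. The mean was 7.94 ± 0.12 (SD, n = 3) in KO against 8.59 ± 0.07 (SD, n = 4) in WT, 1.56-fold lower (change -0.65, 95% interval -0.81 to -0.48, limma adjusted p = 0.00526). Myh11, the smooth muscle myosin heavy chain, was at 8.52, 8.92 and 8.84 in KO and 8.88, 8.89, 9.04 and 8.91 in WT. The groups overlapped, only KO 1 being clearly low, and the change of -0.17 did not pass (95% interval -0.40 to 0.06, adjusted p = 0.248). The dimmer probe set of Myh11, 1418122_at, went the other way, at 5.88, 5.95 and 5.79 in KO and 5.59, 5.57, 5.70 and 5.58 in WT (change 0.26, adjusted p over all probe sets 0.0317). Myl6, the essential light chain shared by many cell types, had a change of -0.13 at the only probe set annotated to it alone.

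None of the 4 genes that set the phosphorylation of Myl9 passed. Mylk, the myosin light chain kinase, was at 11.53, 11.46 and 11.44 in KO and 11.60, 11.55, 11.68 and 11.60 in WT. The KO arrays all lay below the WT arrays, by as little as 0.02 between the nearest pair, and the change of -0.13 did not pass (95% interval -0.26 to 0.003, adjusted p = 0.151). Of the subunits of myosin phosphatase, Ppp1r12a, which anchors the enzyme to myosin, had a change of -0.10 at its brightest probe set and Ppp1r12b, a relative of it, one of -0.06. Ppp1r14a, which encodes the phosphatase inhibitor CPI-17, had a change of -0.19 with the widest interval of the 4 (-0.56 to 0.19). At 2 of its dimmer probe sets Ppp1r12a fell, with changes of -0.36 at 1429487_at (adjusted p over all probe sets 0.0176) and -0.33 at 1437734_at (0.0394).

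Of the filament genes, Des fell while the actins did not pass. Acta2, smooth muscle alpha-actin and the most used smooth muscle marker, was at 12.69, 12.87 and 12.75 in KO and 12.58, 12.68, 12.73 and 12.43 in WT. Its change was positive and the groups overlapped (0.17, 95% interval -0.03 to 0.36, adjusted p = 0.202). Actg2, the gamma-actin of visceral smooth muscle, had the opposite sign, with a change of -0.32 (95% interval -0.65 to 0.008, adjusted p = 0.150). Des, which encodes the muscle intermediate filament protein desmin, was at 7.54, 6.97 and 7.45 in KO and 7.93, 8.01, 7.84 and 7.83 in WT. The KO arrays lay below the WT arrays, with KO 2 lowest, and the mean of 7.32 ± 0.31 (SD, n = 3) was 1.50-fold lower than the 7.90 ± 0.08 (SD, n = 4) of WT (change -0.58, limma adjusted p = 0.0238). Without WT replicate 1 or 4 it no longer passed (highest adjusted p 0.0592). Fitted together with the beta-actin 3′ to 5′ difference, the change of Des was -0.09 (limma adjusted p = 0.830).

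Among the 12 genes whose proteins bind or line the thin actin filament, 3 fell, 1 rose and 8 did not pass. Tagln, transgelin or SM22-alpha, an actin-binding marker of smooth muscle, was at 9.87, 9.69 and 10.01 in KO and 10.36, 10.49, 10.54 and 10.34 in WT. The groups were separated by 0.33 between the highest KO and the lowest WT array. The mean was 9.86 ± 0.16 (SD, n = 3) in KO against 10.43 ± 0.10 (SD, n = 4) in WT, 1.49-fold lower (change -0.58, limma adjusted p = 0.00846). Cnn1, the calponin of differentiated smooth muscle, was at 7.38, 7.65 and 7.67 in KO and 7.96, 8.16, 8.16 and 7.82 in WT. Here too the groups did not overlap, and the change was -0.46 (limma adjusted p = 0.0281). It still passed without KO replicate 2 or WT replicate 4, and no longer did without any one of the other arrays (highest adjusted p 0.0720). Smtn, smoothelin, a protein of contractile smooth muscle, was at 7.04, 6.79 and 7.23 in KO and 7.41, 7.30, 7.40 and 7.42 in WT. The nearest KO and WT arrays were 0.07 apart, and the change of -0.36 (limma adjusted p = 0.0432) kept its call without KO replicate 3 and lost it without any other array (adjusted p up to 0.101), and fitted together with the beta-actin 3′ to 5′ difference it was -0.11.

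Tropomyosins are rods that lie along the actin filament, and their genes differed in sign. Tpm2, the tropomyosin beta gene, was at 11.02, 11.30 and 11.29 in KO and 10.81, 10.93, 10.96 and 10.78 in WT. Every KO array was above every WT array, and the mean of 11.20 ± 0.16 (SD, n = 3) was 1.26-fold above the 10.87 ± 0.09 (SD, n = 4) of WT (change 0.33, limma adjusted p = 0.0379). Leaving out KO replicate 1 kept the call, and leaving out any other array lost it (adjusted p up to 0.109), and the other probe sets of Tpm2 had changes of 0.21, 0.16 and 0.13, none of which passed. At their brightest probe sets Tpm1, Tpm3 and Tpm4 had changes of -0.28, -0.15 and -0.15, each with an unadjusted p under 0.05 and an adjusted p of 0.138 or above. The Tpm3 probe sets 1436958_x_at and 1449997_at had the opposite sign, with changes of 0.05 and 0.22, and did not pass. Of the remaining thin-filament genes, Cnn2 was at -0.24, Cnn3 at -0.09, Synpo2 (synaptopodin 2, an actin-bundling protein) at -0.13, Cald1 (caldesmon, which restrains myosin on actin) at -0.05 and Lmod1 (leiomodin, which starts actin filaments) at -0.01. The 95% interval of Cnn2 was -0.47 to -0.02, and those of the other genes in this group included 0.

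Among the genes of actin crosslinking and adhesion, 4 of 10 fell and 6 did not pass (limma, adjusted p under 0.05). Csrp1, a LIM-domain protein of smooth muscle that binds alpha-actinin and zyxin, was at 8.10, 7.25 and 7.31 in KO and 8.92, 9.02, 8.84 and 8.60 in WT. KO 1 lay between the other KO arrays and the WT arrays, and the groups did not overlap. The mean was 7.55 ± 0.47 (SD, n = 3) in KO against 8.84 ± 0.18 (SD, n = 4) in WT, 2.45-fold lower (change -1.29, limma adjusted p = 0.00839). The other Csrp1 probe set, 1425810_a_at, was dim and had a change of 0.09. Csrp2, its paralog, had a change of -0.27 with no overlap of the groups and did not pass (adjusted p = 0.0637).

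Flna, filamin A, which crosslinks actin into networks, was at 9.80, 9.47 and 9.57 in KO and 10.05, 10.05, 10.16 and 10.14 in WT. The groups were separated, and the change was -0.49 (limma adjusted p = 0.0106). Tln1, talin 1, which joins integrins to actin, was at 10.14, 9.85 and 10.19 in KO and 10.37, 10.40, 10.41 and 10.50 in WT. The change was -0.36 (limma adjusted p = 0.0310) and lost its call without any one of the WT replicates (adjusted p up to 0.0806). A dimmer Tln1 probe set, 1436042_at, rose by 0.42 (adjusted p over all probe sets 0.0263), with KO arrays at 7.16, 7.54 and 7.21 above WT arrays at 6.80, 6.91, 6.94 and 6.88, and the mean of all Tln1 probe sets had a change of 0.05.

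Pdlim7, a PDZ and LIM-domain adaptor on actin fibres, was at 8.11, 8.19 and 7.90 in KO and 8.39, 8.48, 8.89 and 8.56 in WT. The nearest arrays of the groups were 0.20 apart, WT 3 being the highest. The change of -0.51 (limma adjusted p = 0.0297) no longer passed without KO replicate 1 or 3 or WT replicate 4 (highest adjusted p 0.0931), and the other Pdlim7 probe sets had changes of 0.15 and 0.01. Actn4, the alpha-actinin of non-muscle cells, had a change of -0.38 without overlap and did not pass (adjusted p = 0.0810). Its relative Actn1 was at -0.01, Vcl, vinculin of adhesion plaques, at -0.05, Pdlim5 at -0.20 and Lpp, a LIM-domain protein prominent in smooth muscle, at 0.16.

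**Figure D2:**
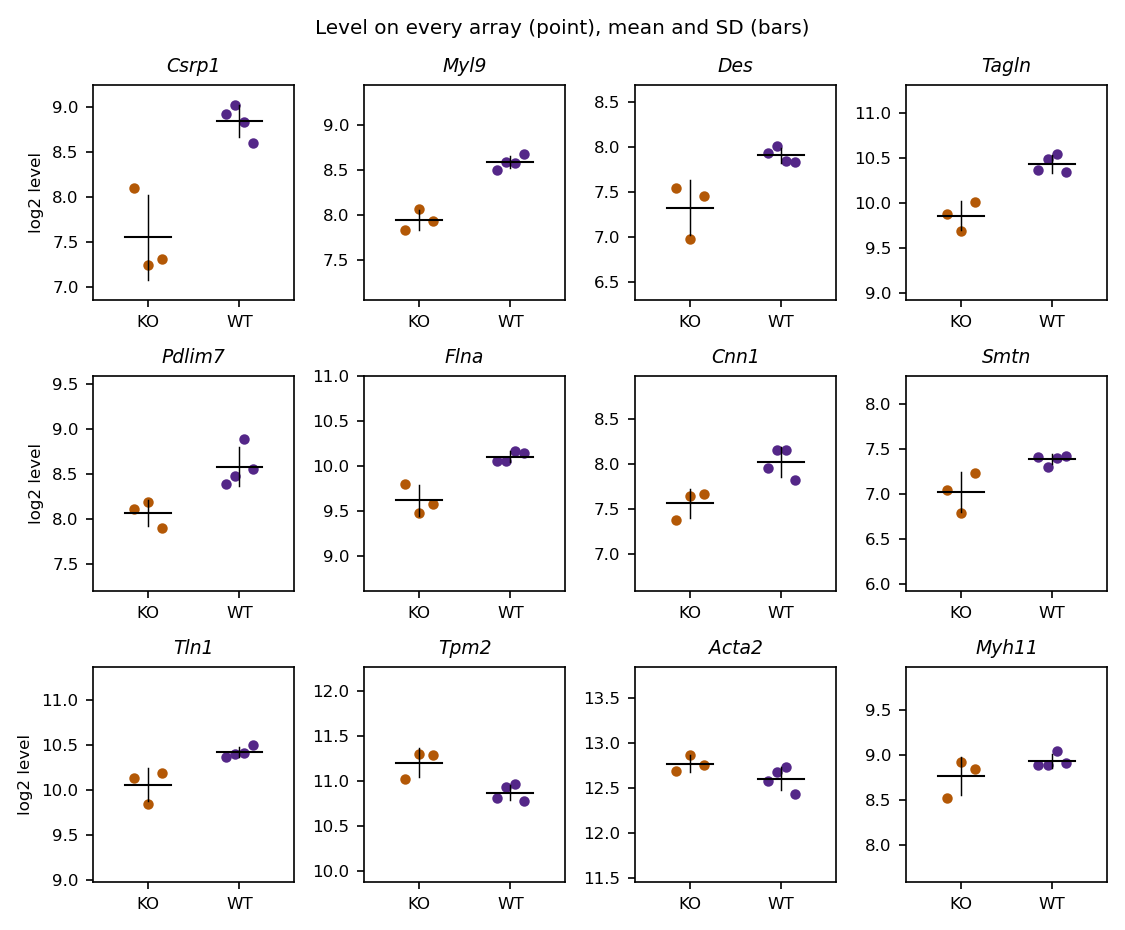
Log2 levels (vertical axis, of the same span in every panel) on each KO (n = 3) and WT (n = 4) array are drawn as points with the group mean as a horizontal bar and the SD as a vertical bar. The 10 members that passed have groups without overlap, with the nearest arrays 0.50 apart for Csrp1 and 0.06 for Tpm2, and the groups of Acta2 and Myh11 overlap.

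The transcription factors of the program did not pass. Srf was at 8.60, 8.70 and 8.65 in KO and 8.38, 8.44, 8.61 and 8.36 in WT. WT 3 reached into the KO range, and the change of 0.20 had the opposite sign to most of the contractile genes (95% interval 0.03 to 0.37, adjusted p = 0.0974). The dimmer Srf probe set, 1418256_at, did not share that sign, with a change of -0.035 and overlapping groups. Myocd, the smooth muscle and heart coactivator of SRF, was at 5.01, 5.26 and 4.89 in KO and 5.49, 5.26, 5.51 and 5.26 in WT. Its values were dim and overlapped, and the change of -0.33 did not pass in the fit without a level filter (adjusted p = 0.0812). Of the signalling genes, Rhoa had a change of -0.13 and Rock1 one of -0.06 at the brightest probe sets, and both intervals included 0.

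Promoter sequences of the members were taken from RefSeq (GRCm38.p6), 250 bases before to 50 after each annotated start, and 31 members had at least 1 such window. They are shown because SRF-driven genes are the core of the set and its members differed in direction. A CArG box, searched as an exact match to its consensus on both strands, was in a window of 5 of the 31 members, which is 16.1%, against 1.59% of the tested genes that had windows of the same length. A GATA motif (the letters GATA between A or T before and A or G after, on either strand) was in a window of 3 of the 31, Myl6, Pdlim5 and Tpm3, which is 9.68%, against 23.0% of tested genes. No match of one motif overlapped a match of the other in these windows. The stretches around the CArG boxes are printed in the direction of the gene, with the boxes in capitals. They lie in the promoters of Myl9 (chr2:156775278-156775337, plus strand), Cnn2 (chr10:79988519-79988578, plus strand), Myl6 (chr10:128493025-128493084, minus strand), Vcl (chr14:20929148-20929205, plus strand) and Srf (chr17:46556190-46556269, minus strand), all upstream of the start.
Myl9: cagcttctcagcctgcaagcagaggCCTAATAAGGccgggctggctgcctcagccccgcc
Cnn2: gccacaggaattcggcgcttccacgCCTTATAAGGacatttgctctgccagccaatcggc
Myl6: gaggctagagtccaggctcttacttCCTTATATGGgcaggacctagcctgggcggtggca
Vcl: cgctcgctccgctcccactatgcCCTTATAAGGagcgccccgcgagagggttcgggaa
Srf: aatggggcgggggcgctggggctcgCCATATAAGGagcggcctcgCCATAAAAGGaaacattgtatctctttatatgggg

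The box of Myl9 starts 161 bases before the start, that of Cnn2 56, that of Myl6 50 and that of Vcl 227, and Srf has a pair at 82 and 62. Of these 5 genes Myl9 was the one that fell. The other 4 had changes between -0.24 (Cnn2) and 0.20 (Srf) and did not pass. Of the 8 members that fell and had a window, 1 held a CArG box, and of the 21 with a window that were tested and did not pass, 4 did. Tagln, the other member that fell, had no window and was not searched. Myh11, Actg2, Csrp2, Rock1 and Myocd had none either. A box further from the start is outside these windows, and no match says only that these letters are not in this window.

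Members that belong to 1 family were compared within each array, where a constant offset between arrays cancels. A scaling difference that varies with level need not cancel, nor need the beta-actin 3′ to 5′ difference between the groups. For 15 pairs of relatives, the change of one gene was set against that of the other with an exact two-sided permutation test. In 8 pairs the p was 0.0286, the smallest possible, and after adjustment over the 15 pairs it was 0.0536, so none passed. With 35 splits no single pair could pass this adjustment by its own difference, however large. The adjusted test therefore cannot decide any one pair. The tropomyosins gave 3 of these pairs: the change of Tpm2 exceeded that of Tpm3 by 0.48 and that of Tpm4 by 0.49, and the change of Tpm1 minus that of Tpm2 was -0.61. Csrp1 against Csrp2 gave the largest difference, -1.02. Acta2 against Actg2 gave 0.48, Myl6 against Myl9 0.52, Actn1 against Actn4 0.37 and Pdlim5 against Pdlim7 0.32. These differences are between the brightest probe sets, and some depend on that choice. The Tpm3 probe sets 1436958_x_at and 1449997_at had changes of 0.05 and 0.22, nearer to the 0.33 of Tpm2. The other Actn1 probe sets had changes of -0.02 and -0.62, with Actn4 at -0.38. Those of Pdlim5 ran from -0.76 to -0.04, with Pdlim7 at -0.51 and its other probe sets at 0.15 and 0.01. Tpm3 and Tpm4 differed by 0.003, Ppp1r12a and Ppp1r12b by -0.04 and Cnn1 and Cnn2 by -0.22, all with overlapping groups.

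The 36 genes had 99 probe sets in all, and 23 genes had more than 1. Of the 44 other probe sets that reached the tested level, 10 fell, 2 rose and 32 did not pass (limma, adjusted over all 34945 single-gene probe sets, of which 7.85% fell and 3.98% rose). Of all probe sets on the array that reached that level and do not represent their gene, 14.9% fell and 4.71% rose, and the members' shares were 22.7% and 4.55%. Rock1 showed the widest spread. Its brightest probe set was at -0.06, while 1460729_at was at 7.13, 6.95 and 6.14 in KO and 8.37, 7.94, 8.14 and 7.88 in WT (change -1.34, adjusted p over all probe sets 0.0104), 1423445_at had a change of -0.34 (0.0249) and 1441162_at one of 0.10. Pdlim5 was at -0.76 at 1450786_x_at (0.0112), Lpp at -0.75 at 1436714_at (0.0169), Actn1 at -0.62 at 1427385_s_at (0.0338), Tpm1 at -0.58 at 1456623_at (0.0153), Cald1 at -0.51 at 1424770_at (0.0252) and Cnn3 at -0.47 at 1426724_at (0.0235), where their brightest probe sets did not pass. In each of these the KO arrays lay below the WT arrays. The sources used here do not give which part of a transcript each probe set reads. The larger beta-actin 3′ to 5′ difference on the same KO arrays, 4.96 against 4.10, stands beside these values, and its part in them was not tested.

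**Figure D3:**
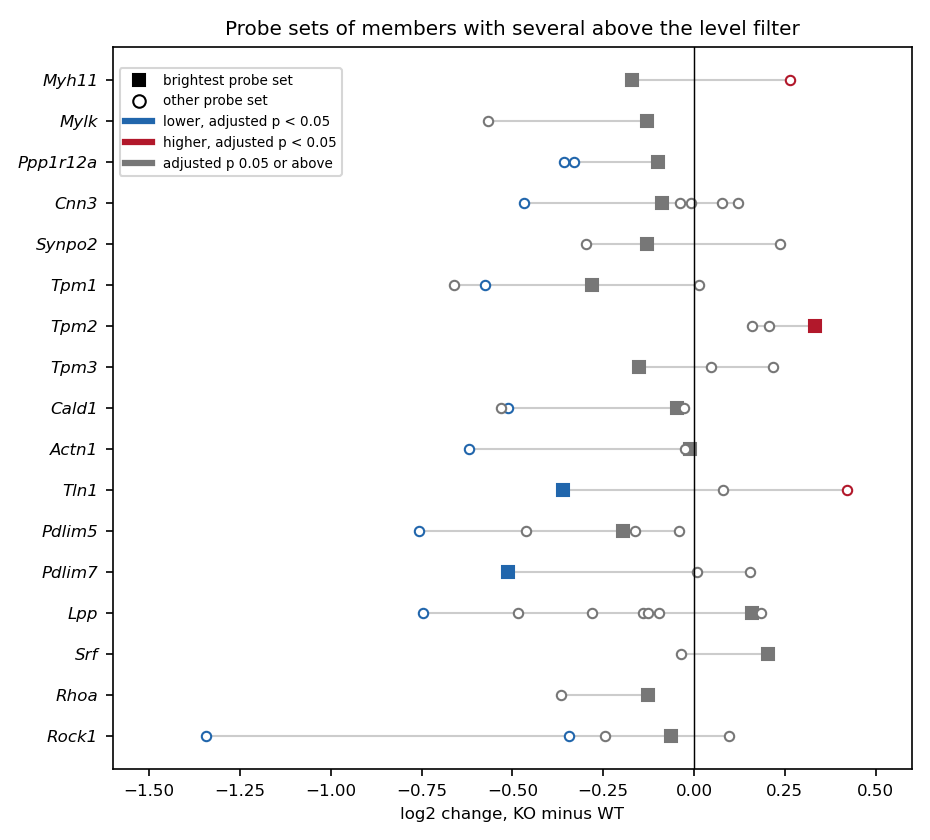
For the 17 members with more than 1 probe set at the tested level, the log2 change (KO minus WT, horizontal axis) of every such probe set is drawn, the brightest as a filled square and the others as open circles, coloured by the test over all probe sets. In 10 of the 17 genes the probe sets take both signs, and those of Rock1 run from -1.34 to 0.10.

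The KO arrays did not contribute equally. Of the 9 members that fell, 6 had their lowest value on KO 2, 2 on KO 1 and 1 on KO 3. KO 2 also had the largest beta-actin 3′ minus 5′ difference, 5.39 against 4.74 and 4.76 on the other KO arrays, and the largest Gapdh 3′ minus middle difference, 4.31 against 3.85 and 3.88. The beta-actin 3′ minus middle difference was instead largest on KO 3, at 3.34, with KO 1 at 2.84 and KO 2 at 2.89. With any of the 3 control differences as a covariate, 0 members passed in limma in either direction, with 5 (beta-actin 3′ minus 5′), 9 (beta-actin 3′ minus middle) and 11 (Gapdh) members at unadjusted p under 0.05, and over all tested genes 0, 0 and 5 passed. The 9 lower members stayed negative and Tpm2 stayed positive with each of the 3 covariates. With the first of these covariates the changes of the 9 ran from -0.91 to -0.04, those of Myl9, Cnn1 and Tagln being -0.74, -0.60 and -0.37 and that of Tln1 -0.04. The control difference and the genotype separate the same arrays, so their parts cannot be told apart in these 7 mice.

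**Figure D4:**
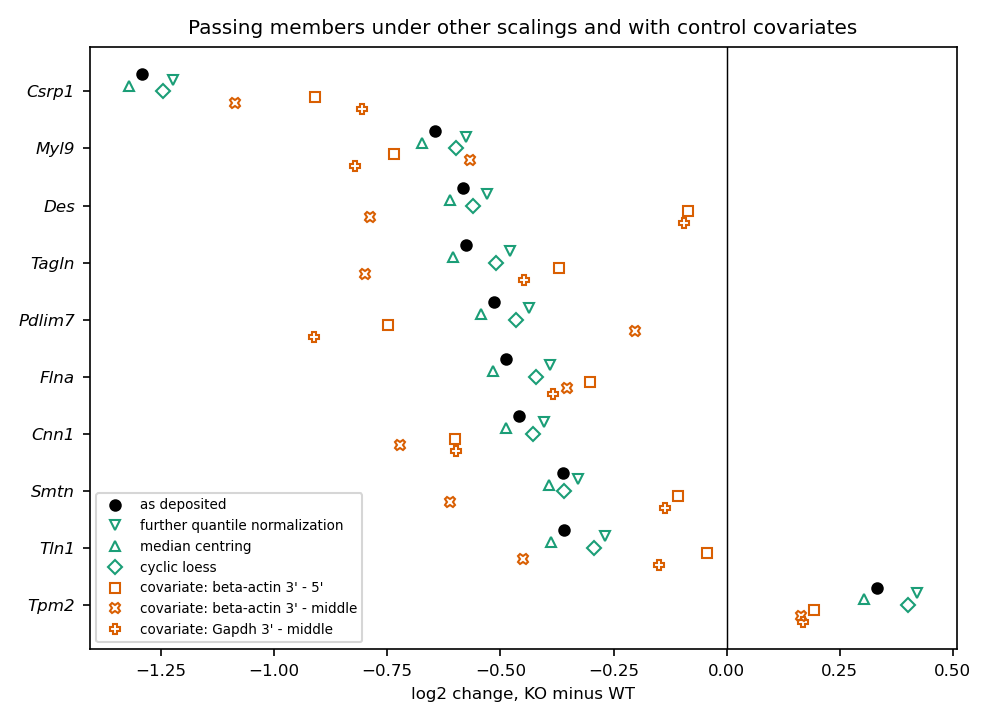
The log2 change (KO minus WT, horizontal axis) of each of the 10 members that passed is drawn as deposited (black), after 3 other scalings (green) and with each of 3 control differences as a covariate (orange). No point crosses 0; the orange points of Des, Smtn and Tln1 come nearest to it, and those of Myl9 lie between -0.57 and -0.82.

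Other genes of the same machinery were read from a list. Of 49 further smooth muscle and actin cytoskeleton genes 44 were tested, and 9 fell, 1 rose and 34 did not pass, with a median change of -0.10. The shares are 20.5% lower and 2.27% higher, against 10.0% and 5.56% of all tested genes. The 9 became 2 without KO replicate 3, 3 without WT replicate 1 or WT replicate 4, 5 without WT replicate 3 and 3 with the Xist level as a covariate. Lower genes over the whole array numbered 1331 in the main fit and 686 without KO replicate 3. Without WT replicates 1, 4 and 3 they numbered 695, 604 and 750, and with the Xist covariate 634. With the 3 control differences as covariates 0 passed in limma (9, 3 and 11 at unadjusted p under 0.05), as among the 5 mice of lowest mouse number (15 at unadjusted p under 0.05). Over all tested genes 0, 0 and 5 passed in those 3 fits and 0 among the 5 mice. The 4 with the smallest p were Hhip, a hedgehog-binding protein of airway smooth muscle (-0.59, limma adjusted p = 0.00582), Vasp, which promotes actin filament growth (-0.92, 0.0163), Zyx, zyxin of focal adhesions and a partner of Csrp1 (-0.37, 0.0206), and Myh10, a non-muscle myosin heavy chain (-0.35, 0.0206). Pxn, paxillin, was the one that rose (0.24, limma adjusted p = 0.0321).

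Markers of the cells that share these genes were set beside them. Of 10 pericyte and mural cell markers 1 fell, Cspg4 (-0.45), and the brightest, Pdgfrb and Postn, were at 0.17 and -0.32; the summed level of the list on a log2 scale was 13.57 to 13.64 on KO arrays and 13.51 to 13.80 on WT arrays. Fibroblast markers had 3 of 8 lower (Mfap4, Tcf21 and Dcn, at -1.16, -0.75 and -0.46), while Col1a2 and Pdgfra, the brightest, were at -0.09 and -0.32, and the summed level was 14.22 to 14.48 on KO arrays and 14.50 to 14.68 on WT arrays. Of 5 mesothelial markers 3 fell (Upk3b, Lrrn4 and Msln), and the summed level was 9.37 to 9.88 against 9.89 to 10.65, with Upk1b and Upk3b, the brightest, at -0.20 and -1.91. Of 8 endothelial markers 2 fell, Pecam1 and Tie1 (-1.22 and -0.83; summed level 13.77 to 13.96 against 14.01 to 14.16, Vwf at -0.05 and Cldn5 at -0.42). Their parts in the members' changes were not tested.

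Platelets are rich in talin, filamin, tropomyosin and Myl9. Of 7 platelet markers 3 rose (Gp1bb, Ppbp and Treml1) and 0 fell (limma), with a summed level of 11.83 to 12.15 on KO arrays and 11.17 to 11.64 on WT arrays and with Ppbp at 0.81 and Pf4 at 0.55. Of the members that encode these proteins and passed, Tpm2 rose (0.33) and Tln1, Flna and Myl9 fell (-0.36, -0.49 and -0.65). The other tropomyosins, Tpm1, Tpm3 and Tpm4, had changes of -0.28, -0.15 and -0.15 and did not pass. Of 6 leukocyte markers 1 fell, Lyz2 (-0.43), with Ptprc, the next brightest, at 0.09 and a summed level of 13.50 to 14.05 against 13.87 to 14.18. Of 7 epithelial markers none passed in limma; Scgb1a1 and Ager were at 0.06 and -0.02, and the summed level was 16.18 to 16.22 against 16.23 to 16.27. Their parts in the members' changes were not tested.

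Heart muscle, which extends along the pulmonary veins of mice, shares Des and Tpm1 with smooth muscle. Of 8 heart markers 7 were tested and none passed in limma; Myh6 and Myl7, the brightest, had changes of 0.29 and -0.29. The summed level varied from mouse to mouse within each group, from 13.21 to 13.70 on KO arrays and from 12.97 to 13.86 on WT arrays, highest on WT 2 and lowest on WT 4. Of the Tpm1 probe sets, 1423049_a_at was likewise highest on WT 2 (9.34) and lowest of the WT arrays on WT 4 (8.52). The brightest, 1423721_at, was highest on WT 4 (10.25) and at 9.95 on WT 2, and 1456623_at was highest on WT 1 (7.11). Des was also highest on WT 2 (8.01) and lowest of the WT arrays on WT 4 (7.83), while among the KO arrays it was lowest on KO 2 (6.97), where the heart markers were highest of that group. The part of heart muscle in the members' changes was not tested. Of 7 skeletal muscle markers 5 lay under the tested level, and Ckm and Tnni2, the brightest, had changes of -0.07 and 0.24 and did not pass.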

How the data were processed

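The authors deposited log2 levels of 45101 probe sets for 7 arrays. Per the submitters' processing notes, the software was Affymetrix Expression Console, and RMA and MAS5 are listed as methods with no roles; the sources used here do not give which one made the table. The log base was taken from the range of values, 2.91 to 14.61. Of 45037 probe sets that are not controls, 34945 had 1 gene in the platform annotation, 932 several and 9160 none; 34741 names were updated by gene identifier through a RefSeq table (GRCm38.p6). Genes at or above the 40th percentile of probe set means (5.47) were fitted with lmFit and eBayes (limma 3.58.1, R 4.3.3), genotype the only term, with Benjamini-Hochberg adjustment over 13285 genes; this was tested on simulated data. No counting depth applies to arrays, and their number limits the precision. Intervals are at 95%. Summed marker levels are the log2 of summed linear levels. Alternatives covered the scaling, the level filter, the probe sets, the variance model, array weights, covariates, the replicate number and left-out arrays. The members and lists were chosen with earlier results of these data known. Values on every array are given for members that passed and for Acta2, Myh11, Tagln, Cnn1, Myocd, Srf and Mylk; of the list of other genes of the machinery the 4 called genes with the smallest p are named, and of the marker lists the 2 brightest; further genes were named after their values were seen. A second list of other genes is not reported here. Figures were drawn with matplotlib 3.10.9.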

Additional observations from a re-analysis of the deposited data

Results flagged for a closer look

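In 2 of 36 members with values, 1 WT array stood apart from the other 3 WT arrays by more than the 95% limit of Dixon's ratio of gap to range; chance gives this in about 1 group in 20. Smtn was at 7.30 on WT replicate 2 and between 7.40 and 7.42 on the other WT arrays (ratio 0.833). Actn4 was at 11.94 on WT replicate 2 and between 11.66 and 11.68 on the others (ratio 0.929).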

How the results depend on the processing

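The count of 9 lower members was 0 in limma with the beta-actin 3′ minus 5′, beta-actin 3′ minus middle or Gapdh 3′ minus middle difference as covariate and 0 among the 5 mice of lowest mouse number in the labels (5, 9, 11 and 13 members at unadjusted p under 0.05), 5 with the Xist level as covariate, 4 with the replicate block, and 5 to 8 when 1 array was left out (5 without WT replicate 1 or 4). Over all tested genes 0, 0, 5 and 0 passed in the first 4 of these fits. The 1331 lower genes of the main fit became 634 with the Xist covariate and 273 with the replicate block. The count of 1 higher member was 2 after a further quantile normalization, 0 with the mean of all probe sets, array weights, each of the 4 covariates, the replicate block or the 5 mice, and 0 to 1 with 1 array left out. Same-numbered KO and WT arrays did not deviate together (correlations 0.003, -0.04 and 0.04), and arrays of unlike number had correlations from -0.29 to 0.26. With so few arrays these values do not settle whether the mice were paired. The replicate block also leaves WT replicate 4 alone in its block. The members' median change lay between -0.21 and -0.09 under every alternative run. Of the 10 members that passed, 4 (Myl9, Tagln, Flna and Csrp1) passed whichever array was left out. A sign turned in 36 instances in 16 members, and Tln1 was the only one of these that had passed; none passed after turning, and the cause was not tested. Under the mean of all probe sets these were Tln1 and Myh11 (0.0467 each), Vcl (0.0075) and Lpp (-0.19). With the beta-actin 3′ minus 5′ covariate they were Myl6 (0.23), Acta2 (-0.0242), Actn1 (0.067), Actn4 (0.15) and Rock1 (0.0084). With the beta-actin 3′ minus middle covariate they were Ppp1r14a (0.16), Cnn3 (0.0009), Lmod1 (0.0165), Tpm1 (0.22), Cald1 (0.0498), Vcl (0.38), Lpp (-0.14) and Rhoa (0.29), and with the Gapdh covariate Myl6 (0.15), Actn1 (0.069) and Actn4 (0.0597). A further quantile normalization gave Ppp1r12b 0.0196, Lmod1 0.0004, Cald1 0.0108, Vcl 0.013 and Actn1 0.0692, and cyclic loess Cald1 0.0176, Vcl 0.0198, Actn1 0.0554 and Rock1 0.0049. Vcl was at 0.055 among the 5 mice. With 1 array left out, Vcl ran from -0.1225 to 0.0775, Ppp1r12b from -0.115 to 0.01, Lmod1 from -0.0275 to 0.0075 and Actn1 from -0.0425 to 0.0167.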
